A study of Homo sapiens with 15 samples.

Results

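The enzymes that make serine and move its carbon into folate were followed in A549 cells, a line grown from a human lung adenocarcinoma, with and without the cytokine interleukin-13 (IL-13). They were PHGDH, PSAT1, PSPH, SHMT1, SHMT2, MTHFD1 and MTHFD2, 7 of the 11963 genes that this Affymetrix human array represents with a probe set of 1 gene symbol. The set was chosen by earlier results of these same arrays, in which MTHFD2 stood lower after 4 h of IL-13 than at 0 h. Which other measured values entered the choice was not recorded. For that reason every comparison that uses the 0 h or 4 h arrays is given here as a description, with a difference and its standard error but no p-value. The 2 comparisons made within the 12 h and 24 h arrays are given with an adjusted p-value, which is not independent support for the choice of genes.

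The groups were A549 cells harvested 4 h, 12 h or 24 h after IL-13 was added, untreated A549 cells at 24 h, and untreated A549 cells at 0 h, with 3 arrays of total RNA in each of the 5 groups. No dose of IL-13 is stated in the labels, all groups are the same line, and the labels call it bronchial. No untreated arrays exist among these samples at 4 h or 12 h, so that IL-13 and time in culture cannot be told apart at those times. The labels do not say whether arrays of a group came from separate cultures, so the p-values cover nothing beyond the array-to-array spread, which may be technical.

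Serine is built from the glycolytic intermediate 3-phosphoglycerate by PHGDH, PSAT1 and PSPH in turn. Serine hydroxymethyltransferases, SHMT1 in the cytosol and SHMT2 in mitochondria, then split serine into glycine and a carbon unit carried by tetrahydrofolate. MTHFD1 in the cytosol and MTHFD2 in mitochondria convert that unit between its forms, and it feeds purine, thymidylate and methionine synthesis. PHGDH, PSAT1, PSPH, SHMT2 and MTHFD2 are known targets of ATF4, the transcription factor of the amino acid response.

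Of the 7 genes, 6 were bright enough to be tested and SHMT1 was not. PSAT1 and MTHFD2 were the pair of tested members with the highest correlation over the 15 arrays, and the 250 bases before their RefSeq transcription starts (GRCh38.p14, plus strand) are shown here for that reason. Capitals mark CCAAT, the CCAAT box, found on either strand. The PSAT1 stretch is chr9:78296875-78297124 and the MTHFD2 stretch is chr2:74198365-74198614.
PSAT1: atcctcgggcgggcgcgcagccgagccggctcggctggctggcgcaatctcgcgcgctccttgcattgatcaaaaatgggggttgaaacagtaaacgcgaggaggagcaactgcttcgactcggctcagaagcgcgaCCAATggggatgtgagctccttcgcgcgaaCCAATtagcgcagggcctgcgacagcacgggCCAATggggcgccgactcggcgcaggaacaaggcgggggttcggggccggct
MTHFD2: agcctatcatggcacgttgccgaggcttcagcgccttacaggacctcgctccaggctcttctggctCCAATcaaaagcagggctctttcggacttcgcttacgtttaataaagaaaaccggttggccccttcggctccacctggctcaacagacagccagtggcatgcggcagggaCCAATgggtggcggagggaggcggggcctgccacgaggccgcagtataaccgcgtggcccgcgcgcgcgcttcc
CCAAT occurred 3 times in the PSAT1 stretch, first bases at -113, -83 and -52 from the start, and 2 times in the MTHFD2 stretch, at -184 and -74. Of the 7 members, 5 had a promoter in the RefSeq table. PHGDH and MTHFD1 each held 1 CCAAT and SHMT1 held 2. Of all 35116 promoters of the same length, 32.0% held at least 1 CCAAT on either strand. The palindromic E-box CACGTG was found in MTHFD1 and in no other of these 5, against 6.34% of all promoters. TGATGNAA, a form of the amino acid response element, was in none of the 5 windows, against 3.14% of all promoters on either strand. Neither of these other motifs was in the PSAT1 or MTHFD2 stretch, so no matches overlapped there.

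The median deposited signal of an array lay between 56.7 and 72.4, and arrays of 1 group correlated at 0.970 to 0.982 over the tested genes. The ACTB 3'/5' signal ratio, a measure of RNA integrity, averaged 1.001 at 0 h, 1.03 after 4 h of IL-13, 1.08 after 12 h, 1.18 after 24 h and 1.17 in 24 h controls. Its part in the results was not tested. Of 8 markers of the A549 line 7 were above the brightness limit, including KRT8, KRT18 and AKR1B10, and EPCAM was not. Of the markers of other cells, SFTPC, CD3E, ITGAM, COL1A1 and PECAM1 were above it, 5 of the 18 with a probe set. Levels below are deposited signals, and differences are log2 differences of quantile-normalised values with a pseudocount of 20, fitted with limma. Differences are shrunk by the pseudocount for dim genes. Ranges of arrays that did or did not overlap are given as descriptions, because the share of all tested genes without overlap was not counted.

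PHGDH, which oxidises 3-phosphoglycerate and commits carbon to serine (chromosome 1, 119711934 to 119744215 in GRCh38.p14), was not called in either comparison that was tested. Its signal was 326, 372 and 289 at 0 h, then 229, 303 and 275 after 4 h of IL-13, 255, 215 and 309.97 after 12 h, and 300.4, 296 and 278 after 24 h. The 24 h controls read 332, 324 and 327. The 24 h IL-13 arrays all lay below the 24 h controls, while the 4 h and 12 h arrays were scattered and overlapped the 0 h arrays. The difference of IL-13 at 24 h from the 24 h control was -0.19 ± 0.13 (SE, limma, adjusted p = 0.400, 95% interval -0.46 to 0.08). Against 12 h of IL-13 it was 0.13 ± 0.13 (adjusted p = 0.630). A brighter probe set is annotated to PHGDH and also to MZT2A and MZT2B, so its signal was not assigned to PHGDH or tested. That probe set averaged 964 at 0 h, 930 after 4 h of IL-13, 1041.8 after 12 h and 1042.5 after 24 h. In 24 h controls it averaged 896, so there it stood higher with IL-13, where the PHGDH probe set stood lower.

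PSAT1, the aminotransferase of the second reaction of the pathway (chromosome 9, 78297125 to 78330093), was low after 12 h of IL-13 and high again after 24 h. Its signal was 1732, 1559.8 and 1496 at 0 h, then 1069, 1390.3 and 1189 after 4 h of IL-13, 966, 909 and 902 after 12 h, and 1632, 1549 and 1503 after 24 h. The 24 h controls read 1396, 1230.1 and 1131. All 3 arrays at 12 h were below every other array, and the 24 h IL-13 arrays lay within the range of the 0 h arrays. PSAT1 averaged 1561 ± 65.2 after 24 h of IL-13 and 926 ± 35.2 after 12 h (SD, n = 3 each). The difference was 0.71 ± 0.10, a 1.64-fold rise (limma, adjusted p = 0.000451, 95% interval 0.50 to 0.92).

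PSPH removes the phosphate that leaves free serine (chromosome 7, 56011064 to 56051444), and it was highest after 24 h of IL-13. On its brighter probe set the signal was 140.1, 146 and 194 at 0 h, then 155, 147 and 125 after 4 h of IL-13, 137, 144 and 109.5 after 12 h, and 194, 234 and 266 after 24 h. The 24 h controls read 178, 192 and 169.8. The 3 arrays at 24 h of IL-13 stood above all the others, the lowest of them level with the highest 0 h array. PSPH averaged 232 ± 36.2 after 24 h of IL-13 and 130.01 ± 18.1 after 12 h (SD, n = 3 each). The difference was 0.74 ± 0.14, a 1.67-fold rise (limma, adjusted p = 0.00441, 95% interval 0.44 to 1.04). The dimmer PSPH probe set gave 0.89 ± 0.17 for the same comparison. Both probe sets thus stood higher at 24 h than at 12 h of IL-13.

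**Figure D1:**
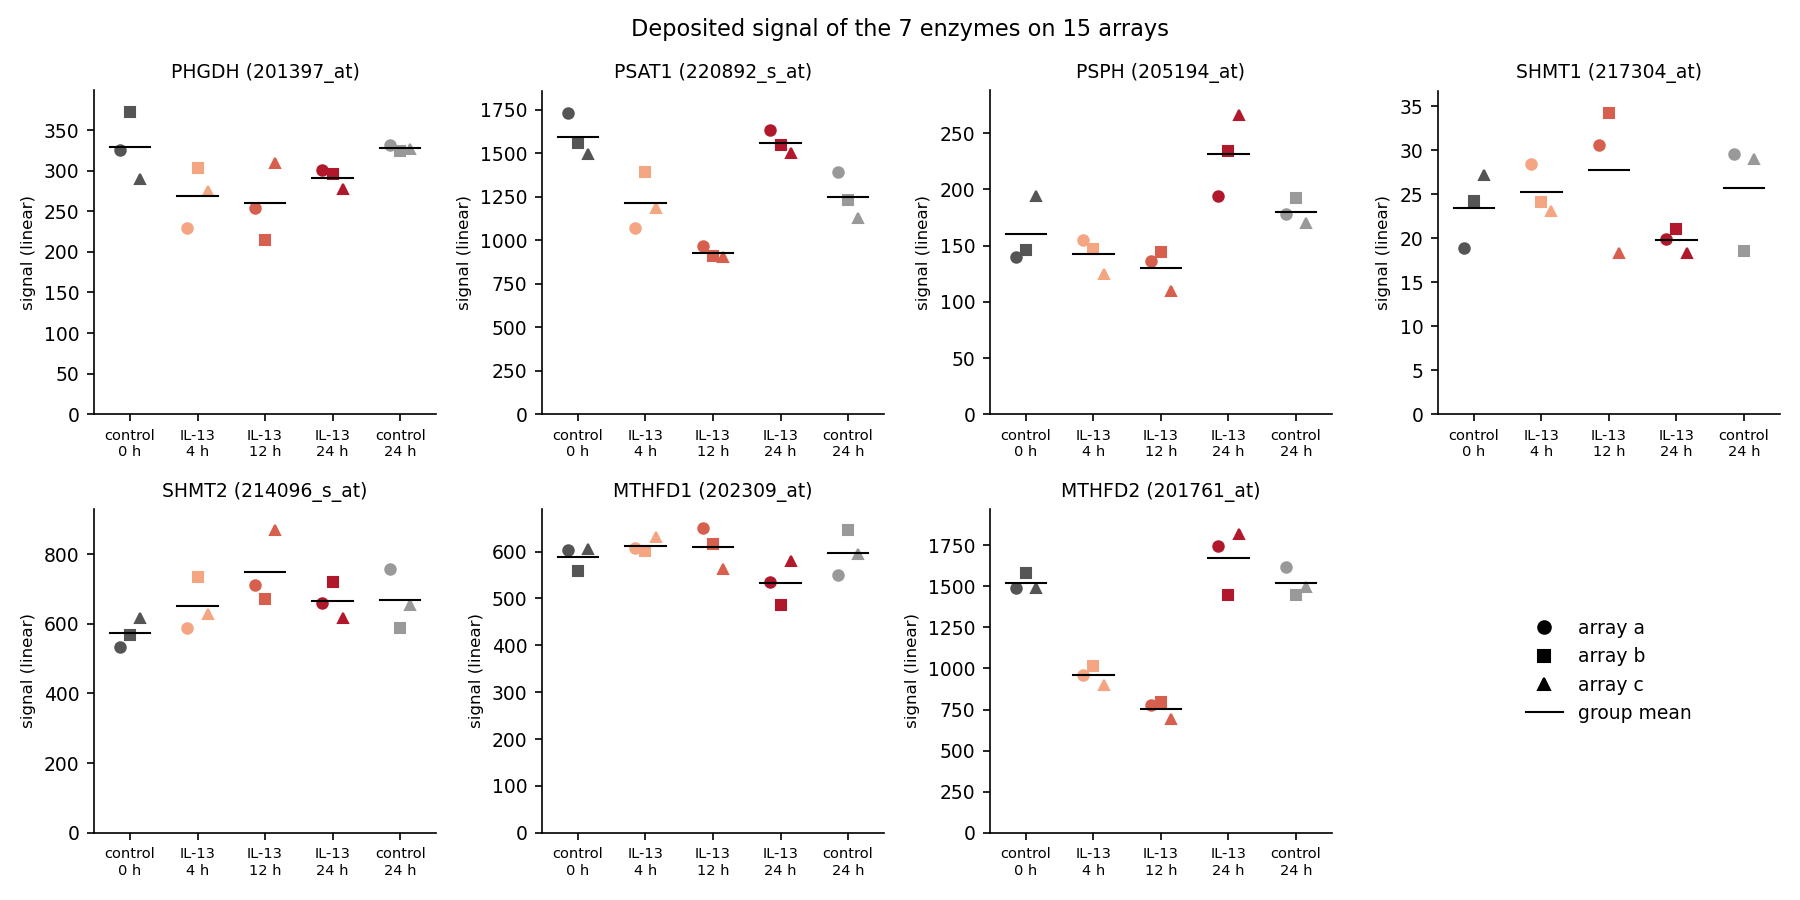
Deposited signal (linear, axis from 0) of each enzyme's brightest probe set on the 15 arrays, by group, with points for arrays and a bar for the group mean of 3. MTHFD2 and PSAT1 are lowest after 12 h of IL-13, at means of 754 and 926, and PSPH is highest after 24 h, at a mean of 232.

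SHMT1, the cytosolic hydroxymethyltransferase (chromosome 17, 18327873 to 18363550), had 1 probe set annotated to it alone, which was dim. The signal of that probe set ran between 18.4 and 34.3 over all 15 arrays, with a mean under the brightness limit, and no change was tested. All groups overlapped with their neighbours in the order of levels. A brighter probe set ran between 27.7 and 146 over the arrays, with a mean above the limit but not every array. It is annotated to both SHMT1 and the microRNA gene MIR6778, so its signal was not assigned to SHMT1.

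SHMT2, the mitochondrial form (chromosome 12, 57229711 to 57234935), had 3 probe sets that did not move alike. On the brightest, the 0 h arrays read 534 to 617, the 4 h IL-13 arrays 587 to 734, the 12 h arrays 671 to 868, the 24 h arrays 616 to 719.7 and the 24 h controls 588 to 758. The highest array was at 12 h, and the 24 h IL-13 range lay inside that of the 24 h controls. The difference of 24 h from 12 h of IL-13 was -0.20 ± 0.12 (limma, adjusted p = 0.377). The dimmest read 94.7, 120.03 and 90.01 after 24 h of IL-13, and 69.8, 67.4 and 52.8 after 12 h. These did not overlap, and the difference was 0.58 ± 0.14 (adjusted p = 0.0251 with every probe set tested by limma on its own). The third, of middle brightness, differed by 0.34 ± 0.13 (adjusted p = 0.147). The direction for SHMT2 between 12 h and 24 h therefore depends on the probe set, and no direction is given for the gene.

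**Figure D2:**
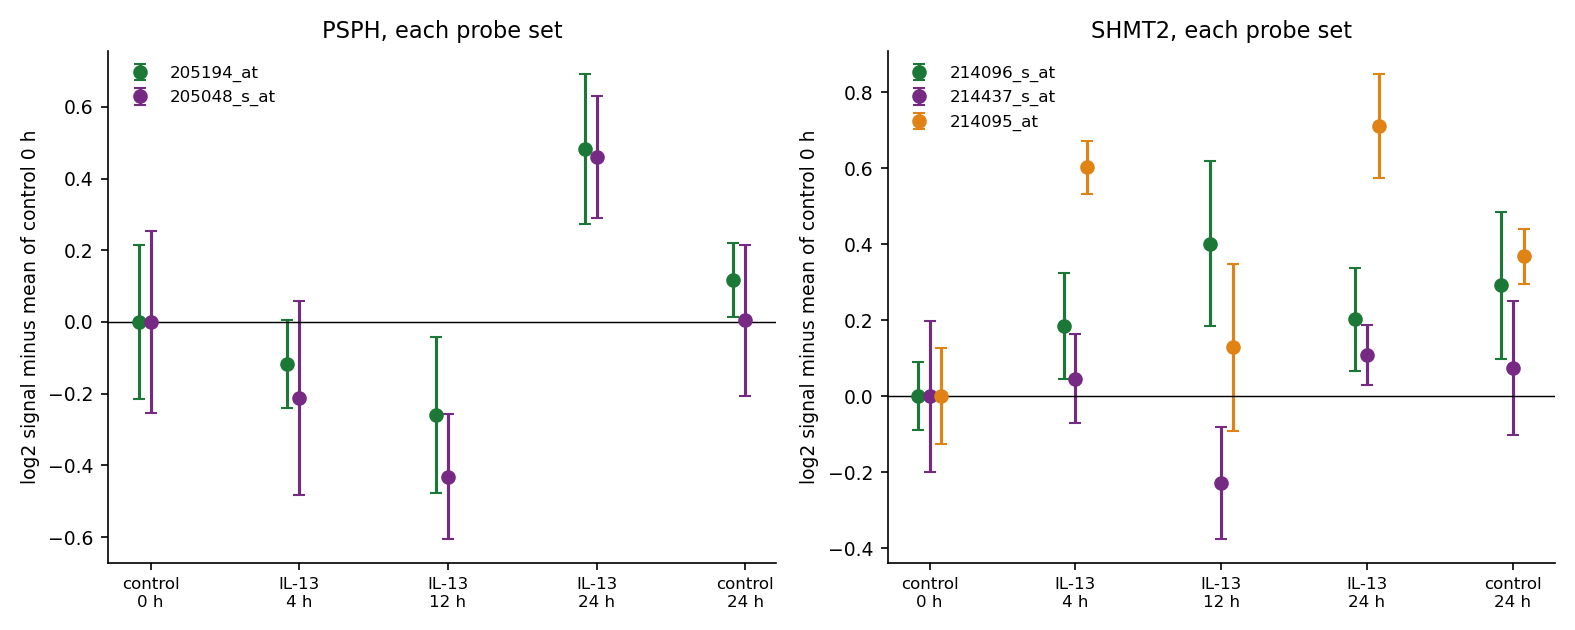
Normalised log2 signal of each PSPH probe set (left) and each SHMT2 probe set (right) relative to its own mean at 0 h, by group, as means with SD bars over 3 arrays, with each legend running down from the brightest probe set. The PSPH probe sets run together, and the SHMT2 probe sets part at 4 h, 12 h and 24 h of IL-13, where at 24 h they lie at 0.71, 0.20 and 0.11.

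MTHFD1, the cytosolic enzyme with dehydrogenase, cyclohydrolase and synthetase activities (chromosome 14, 64388353 to 64460025), varied little. Its signal was 559 to 606 at 0 h, 600.4 to 631 after 4 h of IL-13, 563 to 649.8 after 12 h, 486 to 579 after 24 h and 551 to 647 in 24 h controls. After normalisation the 24 h IL-13 group had the lowest mean and did not overlap with 12 h of IL-13 or with the 24 h controls. The differences missed the threshold, at -0.22 ± 0.09 against 12 h of IL-13 (limma, adjusted p = 0.157) and -0.24 ± 0.09 against the 24 h control (adjusted p = 0.107, 95% interval -0.43 to -0.05).

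MTHFD2, the mitochondrial dehydrogenase and cyclohydrolase (chromosome 2, 74198615 to 74217565), had the widest range of normalised group means of the 7. Its signal was 1489.7, 1579.6 and 1492 at 0 h, then 959.7, 1018 and 899 after 4 h of IL-13, 776, 794 and 692 after 12 h, and 1747, 1448 and 1819.8 after 24 h. The 24 h controls read 1618, 1447 and 1494. The 4 h and 12 h arrays lay below all others and apart from each other, while the 24 h IL-13 arrays and both sets of controls overlapped or lay close together. MTHFD2 averaged 1672 ± 197 after 24 h of IL-13 and 754 ± 54.5 after 12 h (SD, n = 3 each). The difference was 1.10 ± 0.09, a 2.14-fold rise (limma, adjusted p = 7.4e-07, 95% interval 0.91 to 1.29). In these bulk RNA samples, fewer cells that express a gene and less RNA per cell cannot be told apart.

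Between 12 h and 24 h of IL-13, 3 of the 6 tested enzymes (MTHFD2, PSAT1 and PSPH) were called higher at 24 h and 0 lower, at a limma adjusted p under 0.05. Among all 6884 tested genes 6.20% were called in that comparison, 4.14% higher and 2.06% lower. The median difference of the 6 was 0.42, against -0.01 over all tested genes. The calls of MTHFD2 and PSAT1 held in all 19 alternative settings tried, with differences of 1.05 to 1.20 and 0.69 to 0.81. PSPH was called in all 18 in which it was tested, at 0.61 to 0.85.

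The comparison of IL-13 with untreated cells at 24 h uses the same 24 h IL-13 arrays. There, 0 of the 6 enzymes were called, where 7.0% of all tested genes were called, 3.94% higher and 3.07% lower. MTHFD2 averaged 1672 ± 197 with IL-13 and 1519 ± 88.3 without it (SD, n = 3 each), and after normalisation the difference was 0.00 ± 0.09 (limma, adjusted p = 0.999, 95% interval -0.19 to 0.19). PSAT1 averaged 1561 ± 65.2 with IL-13 and 1252 ± 134 without it, a normalised difference of 0.18 ± 0.10 (adjusted p = 0.288, 95% interval -0.03 to 0.39). All deposited PSAT1 signals with IL-13 were above all without it, and this separation was not kept after quantile normalisation. PSPH averaged 232 ± 36.2 with IL-13 and 180.09 ± 11.3 without it, a difference of 0.37 ± 0.14 with ranges that did not overlap (adjusted p = 0.129, 95% interval 0.06 to 0.67). The scaling decides the calls of PSAT1 and PSPH. With arrays scaled to a common median, which moved the median of all genes to 0.17, PSAT1 stood at 0.54 (adjusted p = 0.0108) and PSPH at 0.53 (adjusted p = 0.0230). The size for MTHFD2 also depended on it, at 0.36 with that scaling (limma, adjusted p = 0.0731) and 0.13 with values as deposited, neither called.

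**Figure D3:**
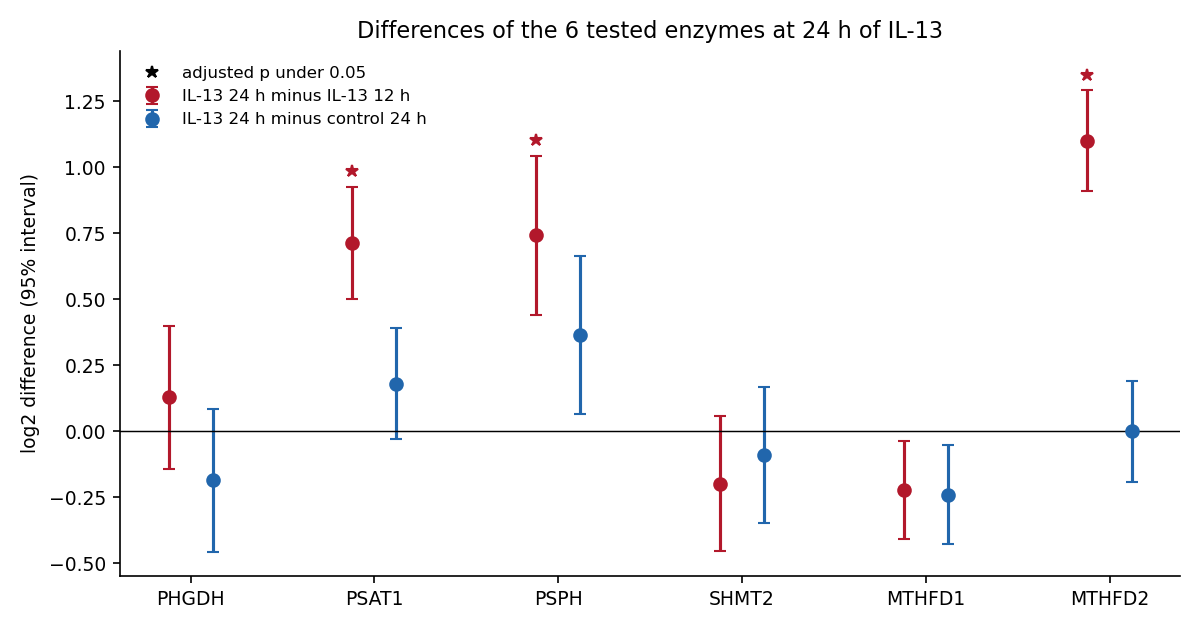
Log2 differences of the 6 tested enzymes at 24 h of IL-13, minus 12 h of IL-13 (red) and minus the 24 h control (blue), with 95% intervals from limma and stars for an adjusted p under 0.05. MTHFD2 lies at 1.10 above 12 h and at 0.00 against the 24 h control, and no blue interval carries a star.

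Set against 0 h, MTHFD2 was lower by a factor of 1.58 after 4 h of IL-13 (-0.66 ± 0.09), the value on which it had been chosen. Because this contrast chose it, its call is a description from which nothing is read. It was the 1 member called lower there, with 0 higher, where 1.22% of all tested genes were called, 0.872% lower and 0.349% higher. PSAT1 stood at -0.41 ± 0.10 with ranges that did not overlap, and was not called. PHGDH stood at -0.25 ± 0.13, PSPH at -0.12 ± 0.14, SHMT2 at 0.18 ± 0.12 and MTHFD1 at 0.07 ± 0.09, all overlapping with 0 h. Without the second 4 h array PSAT1 was also called, at -0.49.

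After 12 h of IL-13, MTHFD2 stood 1.96-fold below 0 h (-0.97 ± 0.09) and PSAT1 1.70-fold below it (-0.76 ± 0.10). These 2 of 6 were called lower and 0 higher, where 4.14% of all tested genes were called, 2.59% lower and 1.55% higher. MTHFD2 was chosen as low against these same 0 h arrays, so its call here is also a description from which nothing is read. The same 12 h arrays enter the comparison with 24 h of IL-13, so the calls of the 2 comparisons are not independent. PSPH stood at -0.26 ± 0.14 and PHGDH at -0.29 ± 0.13, neither called. SHMT2 on its brightest probe set stood at 0.40 ± 0.12, above 0 h on all 3 arrays and not called, against -0.23 ± 0.13 on the probe set of middle brightness. From 4 h to 12 h of IL-13 the differences were -0.31 ± 0.09 for MTHFD2 and -0.35 ± 0.10 for PSAT1. Their ranges did not overlap, and how many of all tested genes did the same was not counted. None of the 6 was called there, nor any of the 6884 genes by limma (0%), of which 697 had an unadjusted p under 0.05.

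After 24 h of IL-13, 5 of the 6 tested enzymes were not called against 0 h, with differences from -0.16 for PHGDH to 0.20 for SHMT2 on its brightest probe set. The dimmest SHMT2 probe set stood at 0.71 ± 0.14 and was called when every probe set was tested on its own, as was SHMT2 by the mean of its probe sets, at 0.34. PSPH stood at 0.48 ± 0.14 or 1.40-fold above 0 h. It was the 1 member called higher, with 0 lower, where 6.87% of all tested genes were called, 3.40% higher and 3.47% lower. That call was lost without either of 2 of the 0 h arrays (a or b) or of 2 of the 24 h IL-13 arrays (b or c), and under most of the other settings, those 2 probe set rules included. In untreated cells, 24 h against 0 h gave 0 calls among the 6, where 3.62% of all tested genes were called, 1.73% higher and 1.89% lower. The untreated differences were -0.23 ± 0.10 for PSAT1, 0.13 ± 0.09 for MTHFD2 and 0.12 ± 0.14 for PSPH. These comparisons share the 0 h arrays and are not independent of each other.

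By normalised level, MTHFD2 ran 24 h IL-13, 24 h control and 0 h, which overlapped as neighbours, then 4 h and 12 h of IL-13, each apart from the group before it. PSAT1 ran 0 h, 24 h IL-13, 24 h control, 4 h and 12 h, and of these neighbours only 4 h and 12 h did not overlap. PSPH ran 24 h IL-13, 24 h control, 0 h, 4 h and 12 h, and of these neighbours only the first pair did not overlap. For PHGDH, SHMT1, SHMT2 and MTHFD1 every pair of neighbours in the order overlapped.

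Over the 15 arrays the log2 values of PSAT1 and MTHFD2 correlated at r = 0.858, and those of PSPH and MTHFD2 at 0.712. The other pairs of tested members ran from -0.546 (PSAT1 with MTHFD1) to 0.563 (PHGDH with PSAT1). With the group means taken out, PSAT1 with MTHFD2 was at 0.214 and PSPH with MTHFD2 at 0.204. The likeness of these pairs was thus seen mainly between group means, though values from 10 residual degrees of freedom are imprecise. The 3 tested genes most like MTHFD2 were CEBPG (r = 0.958), TRIB3 (0.956) and TSC22D3 (0.944). For PSAT1 they were the seryl-tRNA synthetase SARS1 (0.894), CD63 (0.888) and the asparagine synthetase ASNS (0.887). For PSPH they were SERINC1 (0.959), ZNF217 (0.933) and PIGB (0.919). All points of these correlations share the arrays and their normalisation.

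Other targets of the amino acid response held 22 tested genes outside the serine pathway. This list and those below were chosen with earlier results of these data known. Their counts and p-values are therefore descriptions and not independent support. After 24 h of IL-13, 15 of the 22 were called higher than after 12 h and 0 were called lower, where 4.14% and 2.06% of all tested genes were. The median was 0.73, and 4 of the 22 stood lower without a call. TRIB3, a pseudokinase, averaged 1721 after 24 h and 452 after 12 h (1.87 ± 0.15, limma, adjusted p = 7.4e-07). CHAC1, which degrades glutathione, differed by 2.01 ± 0.21, ASNS by 1.18 ± 0.17 and ATF4 itself by 0.65 ± 0.10, a 1.57-fold rise (adjusted p = 0.00110). After 12 h of IL-13, 11 of the 22 were called lower than at 0 h, where 2.59% of all tested genes were. All 22 stood lower, with a median of -0.44. The same 12 h arrays serve this comparison and that of 24 h with 12 h, so their counts are not independent. After 4 h, 4 were called lower, where 0.872% of all tested genes were, with TRIB3 at -1.83 ± 0.15 and CHAC1 at -1.44 ± 0.21. ATF4 was at -0.41 ± 0.10 after 12 h and at -0.32 ± 0.10 after 4 h, where it was not called. Against the 24 h control, 1 of the 22 was called lower after 24 h of IL-13 and 12 stood lower, where 3.07% of all tested genes were called lower. The called gene was the amino acid transporter subunit SLC3A2 (-0.46 ± 0.12, adjusted p = 0.0252).

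**Figure D4:**
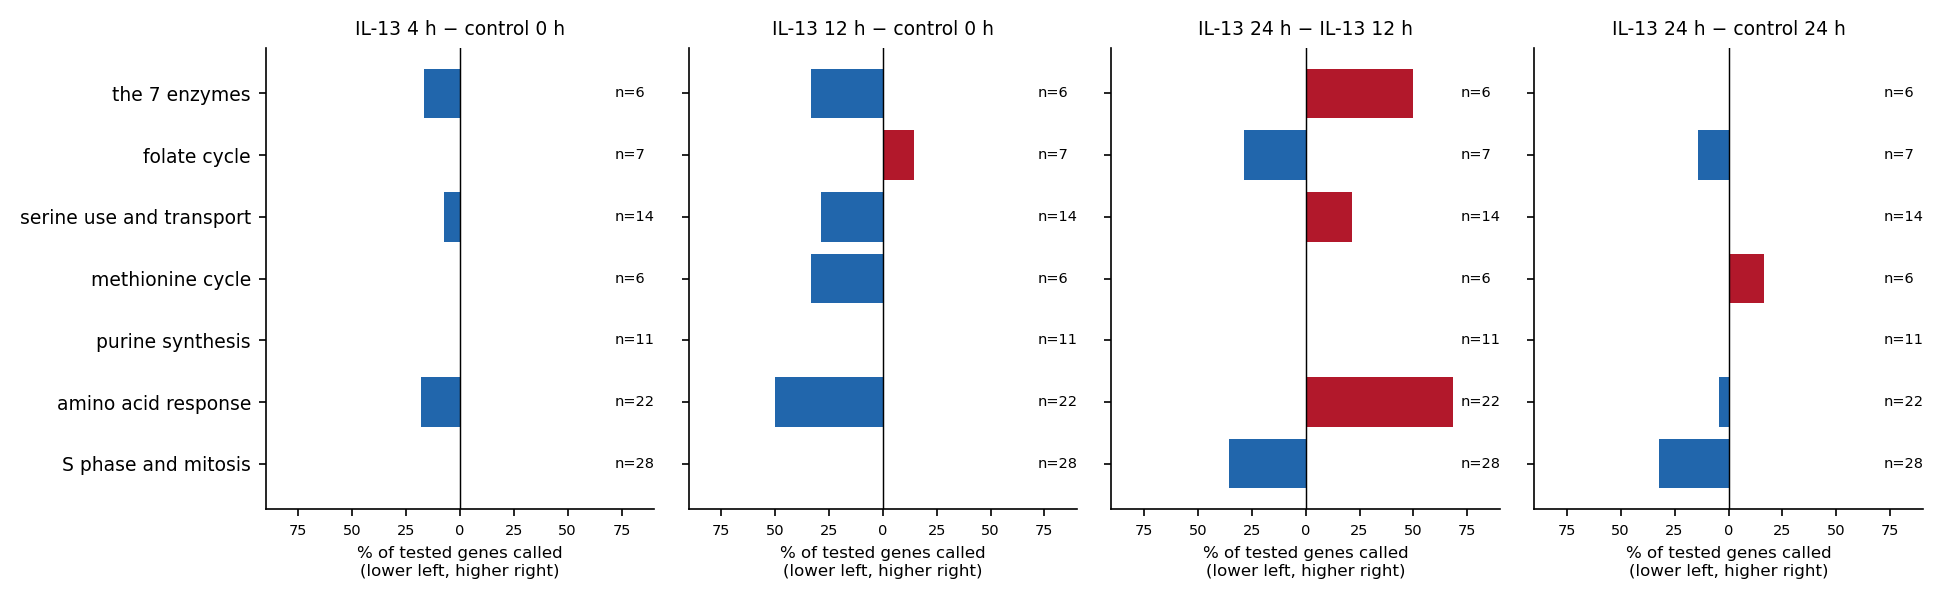
Percentage of tested genes called lower (blue, left) or higher (red, right) at a limma adjusted p under 0.05, for the enzymes and 6 gene lists in 4 comparisons, with the number tested beside each bar. Among the 22 amino acid response genes, 15 are called higher at 24 h than at 12 h of IL-13, against 4.14% of all tested genes. None of the 11 purine synthesis genes is called in any of the 4, where 1.22% to 7.0% of all tested genes are.

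Genes that use or carry serine were tested for 14 members. Of these, 3 were called higher after 24 h than after 12 h of IL-13 and 0 lower, where 4.14% and 2.06% of all tested genes were, and 6 of the 14 stood lower. The called genes were all transporters of neutral amino acids: SLC1A4 (0.80 ± 0.14), SLC38A2 (0.65 ± 0.12) and SLC38A1 (0.56 ± 0.10, limma, adjusted p = 0.00298). After 12 h of IL-13, 4 were called lower than at 0 h, where 2.59% of all tested genes were. They were SLC1A5 (-0.93 ± 0.16), SLC1A4 (-0.93 ± 0.14), SLC38A2 (-0.60 ± 0.12) and SLC38A1 (-0.57 ± 0.10). Here too the 12 h arrays are shared with the comparison of 24 h with 12 h. After 4 h, SLC38A2 alone of the 14 was called, at -0.78 ± 0.12, where 0.872% of all tested genes were called lower. None of the 14 was called between IL-13 and the control at 24 h, where 7.0% of all tested genes were.

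Of 7 tested folate genes, 2 were called lower after 24 h than after 12 h of IL-13 and 0 higher, where 2.06% and 4.14% of all tested genes were, and 6 of the 7 stood lower. The called genes were TYMS, the thymidylate synthase that consumes methylene-tetrahydrofolate, and the folate receptor FOLR1. TYMS averaged 1221 after 24 h and 1828 after 12 h (-0.56 ± 0.09, limma, adjusted p = 0.00168), and FOLR1 differed by -0.62 ± 0.16. TYMS was also lower after 24 h of IL-13 than in the 24 h control, by -0.60 ± 0.09 (adjusted p = 0.00102). Of 6 methionine cycle genes 0 were called between 24 h and 12 h of IL-13, where 6.20% of all tested genes were. None of 11 purine synthesis genes was called in that or any other comparison, where 0% to 7.0% of all tested genes were. With so few genes, these counts do not set either list apart from all tested genes.

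Genes of S phase and mitosis were counted beside the enzymes as a measure of growth state. Of 28 tested, 10 were called lower after 24 h than after 12 h of IL-13 and 0 higher, where 2.06% and 4.14% of all tested genes were. All 28 stood lower, with a median of -0.34. RRM2, a subunit of ribonucleotide reductase, differed by -0.71 ± 0.12 (limma, adjusted p = 0.00144), MKI67 by -0.27 ± 0.11 (adjusted p = 0.183) and PCNA by -0.18 ± 0.20 (adjusted p = 0.684). Against the 24 h control 9 of the 28 were called lower, where 3.07% of all tested genes were, among them MKI67 (-0.66 ± 0.11, limma, adjusted p = 0.00212). All 28 stood lower there, with a median of -0.29. Against 0 h, 0 of the 28 were called after 4 h or 12 h of IL-13, where 1.22% and 4.14% of all tested genes were. Of the 28, 3 stood lower after 4 h, with a median of 0.13, and 9 after 12 h, with a median of 0.07. The part of growth state in the enzymes' differences was not tested.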

How the data were processed

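RNA of 15 A549 samples in 5 groups of 3 was measured on Affymetrix human genome arrays. The authors deposited 1 linear signal intensity per probe set and array, and how they background-corrected, summarised and scaled these is not stated in the labels or file headers. The number of arrays limits the precision.

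Array medians differed by 0.27 on the log2 scale, so log2(intensity + 20) was quantile-normalised over 22283 probe sets. Probe sets of 1 symbol were kept, with the brightest for each gene. Genes with a mean log2 above 6.33, the 50th percentile, were tested with limma 3.58.1 in R 4.3.3 (1 mean per group, 10 residual degrees of freedom, variance trend, two-sided), adjusted by Benjamini-Hochberg over 6884 genes. The code was tested on simulated data. Of the members, 10 probe sets had 1 symbol and 2 with several symbols were left out.

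The members and gene lists were chosen with earlier results of these data known. The text names all members, the 3 genes most correlated with a member, up to 4 called genes of each list, and ATF4, ASNS, TRIB3, CHAC1, MKI67, PCNA and TYMS. Sequences and loci are RefSeq's on GRCh38.p14. Alternatives covered scaling, pseudocount, filter, probe set rule, samples in the fit, variance model, array weights, replicate block and leaving out each array.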

Additional observations from a re-analysis of the deposited data

How the results depend on the processing

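Of 952 differences of single enzymes recomputed under the alternatives, 875 kept both sign and call. The sign changed in 52, of which 0 had been called, 11 calls were gained, 13 were lost and 2 could not be tested. Between 24 h and 12 h of IL-13, 3 enzymes were called as reported and with the replicate block, 2 with the 75th percentile filter, which left PSPH out, and 4 with every probe set tested on its own, where SHMT2 joined. Between IL-13 and the control at 24 h, the count of called enzymes was 2 with median scaling and 1 with arrays scaled to the tested genes' median (PSAT1 at 0.37), against 0 as reported. Median scaling moved the median of all genes by 0.17 there and by -0.18 between the 24 h and 0 h controls, where PSAT1 was the 1 enzyme called under both scalings. In the same 24 h comparison, values that turned sign included SHMT2 at 0.00062 as deposited, 0.22 with median scaling, 0.051 with scaling to the tested genes, 0.096 as the mean of its probe sets, 0.34 on its dimmest probe set, 0.034 on that of middle brightness and -0.19 to 0.0079 over leaving out an array. PHGDH stood at 0.057 and MTHFD1 at 0.064 with median scaling, and MTHFD2 at -0.00063 with array weights and at -0.066 to 0.081 over leaving out an array. MTHFD2 kept its sign at 0.13 as deposited, 0.18 with scaling to the tested genes and 0.36 with median scaling, and was called in none of these. Between 24 h and 12 h, SHMT2 was 0.24 as the mean of its probe sets, 0.58 on the dimmest and 0.34 on that of middle brightness.

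At 4 h against 0 h the count was 2 with the 75th percentile filter and with the mean of probe sets, and 1 to 2 over leaving out an array. At 24 h of IL-13 against 0 h it was 0 with median scaling, a pseudocount of 1, no filter, the 75th percentile filter, only the 2 groups, no variance trend or the replicate block, and 0 to 1 over leaving out an array. With the mean of probe sets, or every probe set tested on its own, SHMT2 was called there and PSPH was not. The cause of these changes was not tested. No pairing of the samples by the letters a, b and c was seen. Same-letter deviations correlated at -0.22 to 0.11 and different-letter ones at -0.18 to 0.27. With 3 arrays in each group, these values cannot exclude that a letter marks a shared culture. The count over all genes ranged from 194 to 1236 between IL-13 and control at 24 h (482 as reported), 194 to 508 between 24 h and 12 h (427), 35 to 114 at 4 h (84), 133 to 376 at 12 h (285), 210 to 609 at 24 h against 0 h (473), 66 to 1077 between the controls (249) and 0 to 4 between 12 h and 4 h (0).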

Other observations

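Over the 15 arrays the tested genes most like PHGDH were PXDN (r = 0.882), PSAP (0.824) and PPP1R11 (0.815). For SHMT2, on its brightest probe set, they were HAO2 (0.833), TIAM2 (0.800) and FAM13A (0.786), and for MTHFD1 they were HIPK2 (0.864), STRAP (0.852) and FAHD2A (0.826). PHGDH, which opens the pathway, correlated with PSAT1 at r = 0.563 and with PSPH at -0.0044 over the same arrays. FOLR1, the folate receptor, averaged 486 after 12 h of IL-13 and 387 in 24 h controls, against 244 at 0 h. In the methionine cycle, MTRR, the methionine synthase reductase, averaged 249 after 24 h of IL-13 and 179 in the 24 h controls, a difference of 0.47 ± 0.13 (limma, adjusted p = 0.0344). After 12 h of IL-13, CBS and MAT2A were called lower than at 0 h, at -0.68 ± 0.18 and -0.65 ± 0.18.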
